A study of Mus musculus with 64 samples.

Results

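Whole hearts of wild type mice collected at ZT18, the middle of the dark phase when mice are active and feed, were compared with hearts collected at ZT6, the middle of the light phase when mice rest. Zeitgeber time (ZT) counts hours from lights on. The comparison rests on 4 arrays titled WT at ZT18 and 4 titled WT at ZT6, chosen by their labels, which are 8 of 64 arrays in the study. The study placed wild type mice and CBK mice, called knockout here, at 8 times spaced by 3 h. The knockout lacks BMAL1, the clock transcription factor encoded by Arntl, in cardiomyocytes. Mice of both kinds were males on the C57Bl/6J background (strain label C57/Bl6) and lived on a cycle of 12 h light and 12 h dark with standard chow and water freely offered. Wild type mice were littermates of the knockout; the labels do not say which floxed or Cre alleles the littermates carried, which promoter drove Cre, or how old the mice were. Since each sample has a number but the labels do not tie it to its own mouse, the p-values below reflect variation among samples of a group, some of which may be technical; it was estimated from all 64 arrays, which share 1 fit. Each heart was read on an Illumina MouseRef-8 v2 bead array, and levels are given as log2 signal after background correction and quantile normalization.

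The circadian clock is a feedback loop of transcription. BMAL1 and CLOCK activate genes through E-box sequences, among them the Per and Cry repressors that later shut the pair down, and the nuclear receptors encoded by Nr1d1 and Nr1d2, which repress Arntl in turn through the element that the ROR receptors use to activate it. The loop drives output regulators such as the activators TEF and DBP and the repressor NFIL3, which compete for D-box sequences, and in the heart it is known for daily changes in fuel use and contractile function.

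At ZT18 the clock repressor gene Nr1d1 was 4.40-fold lower than at ZT6 and its target Nfil3 was 2.80-fold higher. The largest difference was in Angptl7, a secreted angiopoietin-like protein, 5.91-fold higher at ZT18. The glutathione S-transferase genes Gsta3 and Gstt1 were higher, and the basement membrane collagens Col4a1 and Col4a2 were lower. Of 9137 features tested (8449 named genes and 688 probes without a gene name, all called genes in counts), 87 differed at an adjusted p under 0.05 with limma, which is 0.952%. Of these, 59 were higher at ZT18 (0.646%) and 28 were lower (0.306%). At an unadjusted p under 0.05 there were 1037 (11.3%). The median size among the 87 was 0.77 on the log2 scale, and 15 passed 2-fold in their measured means, 10 of them higher at ZT18. The 4 arrays of one time lay wholly above or below the 4 of the other in 80 of the 87 and in 586 of all genes (6.41%). Over all genes the median difference was 0.01, and the quartiles were -0.13 and 0.16.

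**Figure D1:**
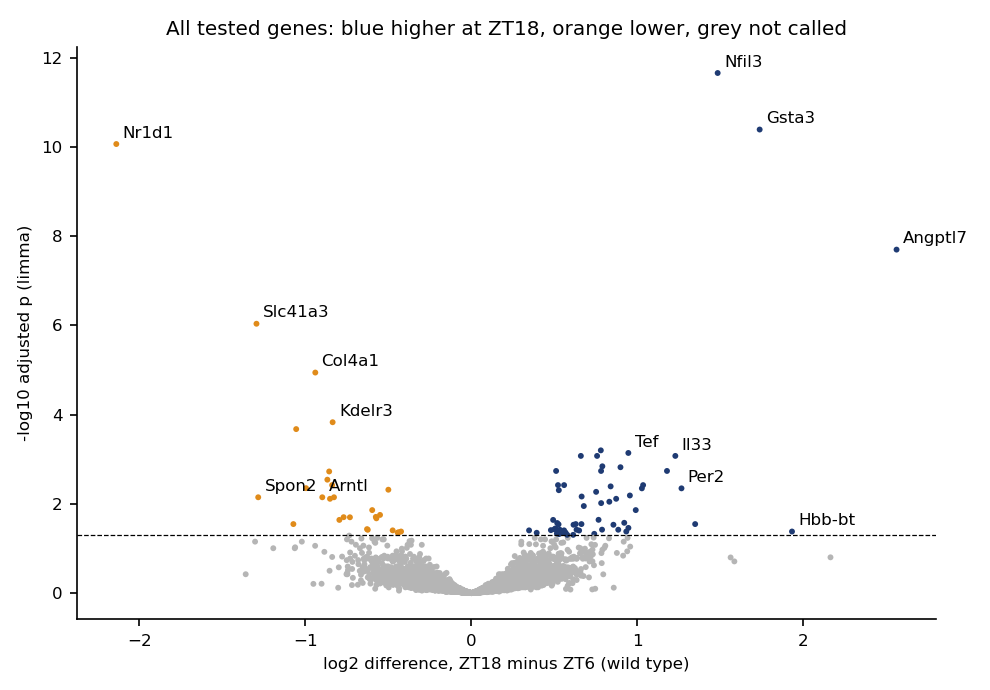
Each point is 1 of the 9137 features; the horizontal axis is the log2 difference, ZT18 minus ZT6, in wild type hearts and the vertical axis the -log10 adjusted p from limma, with the 0.05 threshold dashed. The 59 blue points are higher at ZT18 and the 28 orange points lower; Nfil3, Gsta3, Nr1d1 and Angptl7 stand farthest above the threshold.

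The 8 arrays detected between 9714 and 10494 probes at a detection p under 0.01. Replicate 1 of ZT6 stood apart. Its correlation with the other 7 arrays was 0.966 to 0.974, against 0.978 to 0.990 among the others, and its spread around the group means was 1.65 times that of the median array. Without it 43 genes were called, 27 higher and 16 lower: 38 of the 87 were kept, 49 were lost and 5 were added. When each of the 8 arrays was left out in turn, the count ranged from 43 to 77, with 55 without ZT18 replicate 60 and 57 without ZT18 replicate 84. Of the 87 genes, 25 (16 higher, 9 lower) were called in all 8 of these fits, and the values of those 25 are plotted by array. Where leaving out 1 array ended the call of a gene, the adjusted p without it is given beside the gene or, where several arrays did so, the number of fits that called it is given. Of these, Nampt passed in 6 of the 8 fits, Podn, Casp4 and Creld2 in 4, Zc3h6 and Pik3r1 in 3, and Hbb-bt, Lig1, Tsc22d3 and Gpt in 2, and their adjusted p was highest without replicate 1 except in Hbb-bt, Lig1, Casp4 and Pik3r1. The count also depended on the fit: the 8 arrays alone gave 18 calls and array weights, which give replicate 1 less weight, gave 267. On the 8 arrays alone 16 named genes were called, against 39. Arntl, Per2, Bhlhe40, Col4a2, Kdelr3, Herpud1, Ier3, Plin4 and Timp3 were among those that did not pass there. With median scaling in place of quantile normalization the median over all genes moved to 0.11, and the calls split into 56 higher and 10 lower, 84.8% higher against 67.8%. Among the genes named below, Bhlhe40, Col4a1, Col4a2, Fscn1, Casp4, Creld2, Tsc22d3 and Pik3r1 did not pass under median scaling. That list does not cover genes named after their values were seen, among them Col15a1, Loxl1 and Tmem204.

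**Figure D2:**
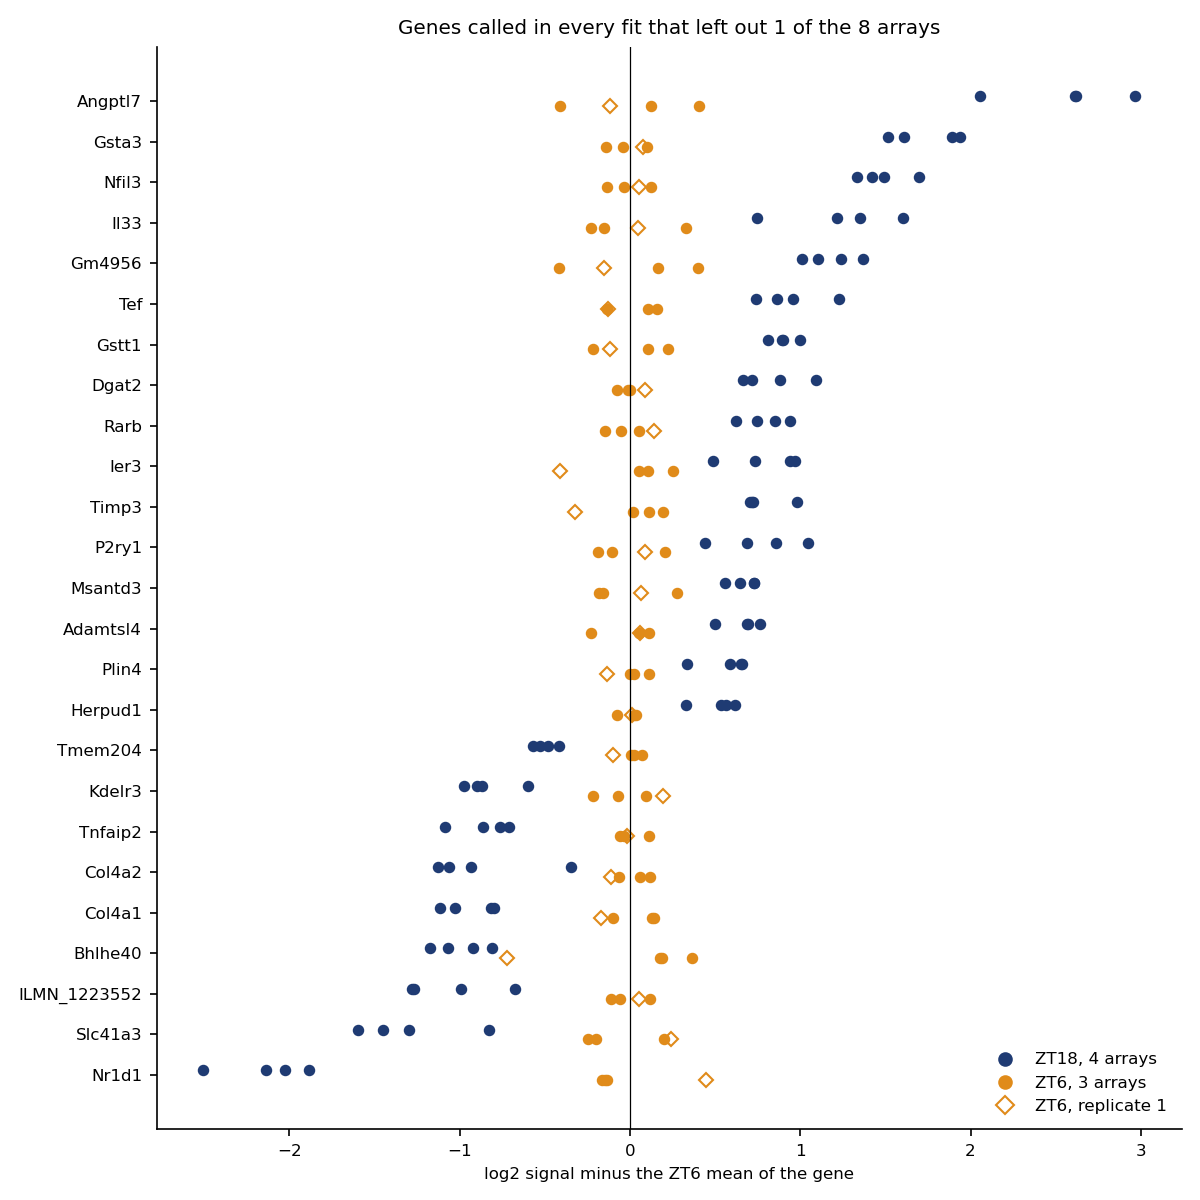
The log2 signal of each array minus the ZT6 mean of the gene, for the 25 genes called in each of the 8 fits that left out 1 array; blue points are ZT18, orange points ZT6, and the open diamond is ZT6 replicate 1, the array that stood apart. The groups do not overlap in these genes; Bhlhe40 comes closest, with replicate 1 at 9.83 next to the highest ZT18 array at 9.74.

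Among 15 measured core clock genes 1 was higher and 3 were lower at ZT18, 26.7% against 0.952% of all genes, with a list median of -0.16 against 0.01. This list and those below were chosen with earlier results of these data known, so their shares are a description only. Some genes count on more than 1 list. Nr1d1, the REV-ERB alpha repressor, measured 6.83, 6.71, 6.34 and 6.97 at ZT18 (replicates 60, 84, 85 and 143, the order used throughout) and 9.29, 8.68, 8.70 and 8.72 at ZT6 (replicates 1, 95, 151 and 152). Each ZT6 array was higher than each ZT18 array by a wide gap. The difference was -2.14 ± 0.21 (SE; limma adjusted p = 8.6e-11), and a second Nr1d1 probe gave -2.25. Bhlhe40 encodes DEC1, which represses through E-boxes. It measured 9.38, 9.74, 9.48 and 9.63 at ZT18 and 9.83, 10.91, 10.73 and 10.74 at ZT6, a difference of -0.99 ± 0.21 (limma adjusted p = 0.00445). Replicate 1 lay far below the other ZT6 arrays here, and without it the difference was -1.24. With median scaling it was -0.84 (limma adjusted p = 0.0834).

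Arntl, the activator that Nr1d1 represses, measured 6.13, 6.15, 6.23 and 6.49 at ZT18 and 6.85, 6.93, 7.52 and 7.29 at ZT6. The groups did not overlap, and the difference was -0.90 ± 0.20 (limma adjusted p = 0.00712, or 0.0598 without ZT6 replicate 151). Arntl and its repressor Nr1d1 were both lower at ZT18. Per2, a repressor of the BMAL1 and CLOCK pair, was the core clock gene that was higher at ZT18. It measured 9.25, 8.94, 9.09 and 8.92 at ZT18 and 6.78, 8.50, 8.02 and 7.84 at ZT6, with replicate 1 the lowest. The difference was 1.27 ± 0.26 (limma adjusted p = 0.00449), a second probe gave 1.10, and without replicate 1 it was 0.93 with an adjusted p of 0.0956.

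The other 11 core clock genes did not pass. Clock, the partner of BMAL1, differed by -0.44 ± 0.15 (limma adjusted p = 0.169), and a second probe gave 0.07. Nr1d2, the close relative of Nr1d1, differed by -0.28 ± 0.20 (limma adjusted p = 0.652), and a second probe gave 0.14. Cry2, the other class of repressor in the loop, had groups that did not overlap and a difference of 0.73 ± 0.26 (limma adjusted p = 0.194). The period genes Per1 and Per3 differed by 0.01 ± 0.35 and 0.52 ± 0.17, and Per1 had a between-array SD of 1.20 at ZT6. Ciart, a repressor of the BMAL1 and CLOCK pair, differed by -0.55 ± 0.23. The remaining members, the receptor genes Rora and Rorb, the casein kinase genes Csnk1d and Csnk1e and Timeless, lay between -0.17 and 0.14, and Rorb was not detected on any of the 8 arrays.

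Of 16 measured clock output genes 5 were higher and 0 lower at ZT18 (31.2%; list median 0.14). This share too comes from a list chosen with earlier results known. Nfil3, the D-box repressor E4BP4, had the smallest adjusted p of all genes. It measured 9.54, 9.38, 9.74 and 9.47 at ZT18 and 8.10, 7.91, 8.17 and 8.01 at ZT6. The 8 arrays formed clearly separate groups, with a difference of 1.49 ± 0.13 (limma adjusted p = 2.2e-12). Tef, an activator at the same D-box sequences, measured 10.28, 9.92, 9.80 and 10.02 at ZT18 and 8.93, 8.92, 9.22 and 9.17 at ZT6. The difference was 0.95 ± 0.17 (limma adjusted p = 0.000723), and a second Tef probe gave 0.35 and did not pass. The repressor and the activator of one sequence were both higher at ZT18.

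Herpud1, a component of endoplasmic reticulum-associated degradation, was 13.29, 13.32, 13.38 and 13.09 at ZT18 and 12.77, 12.78, 12.79 and 12.68 at ZT6. The step was small, 0.51 ± 0.10, with tight groups (limma adjusted p = 0.00183), and a second probe gave 0.63. Nampt, the rate-limiting enzyme of the NAD salvage pathway, was 9.75, 9.83, 9.94 and 9.77 at ZT18 and 8.15, 8.96, 8.80 and 9.42 at ZT6, a difference of 0.99 ± 0.23 (limma adjusted p = 0.0138). The ZT6 arrays were scattered, replicate 1 was the lowest, and without it the adjusted p was 0.146; a second probe gave 0.71 and did not pass. Tsc22d3, the glucocorticoid-induced leucine zipper gene, differed by 0.51 ± 0.13 (limma adjusted p = 0.0356, or 0.23 without replicate 1). A second Tsc22d3 probe gave 0.12 and did not pass (limma adjusted p = 0.889). Dbp, the D-box activator most often used as a clock readout, was looked up after its values were seen. It differed by -0.45 ± 0.18 between ZT18 and ZT6 and did not pass (limma adjusted p = 0.278), although in the hearts collected at the other times it differed by 2.45 ± 0.18 between ZT15 and ZT3 and by -3.09 ± 0.18 between ZT21 and ZT9.

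Promoters of 4 of these genes are shown because they hold the sequence elements through which the clock loop is known to act. Each runs from 250 bases before to 50 bases after a start annotated by RefSeq on GRCm38.p6, in the direction of transcription. Nfil3 (chr13:52980990-52981289, minus strand) and Arntl (chr7:113207261-113207560, plus strand) hold TAGGTCA, the core of the ROR and REV-ERB element, at -12 and 30 from the start, in Nfil3 on the opposite strand. Tef (chr15:81802423-81802722, plus strand) and Slc41a3 (chr6:90618996-90619295, plus strand) hold the E-box CACGTG at -127 and -213. The element is in capitals.
Nfil3: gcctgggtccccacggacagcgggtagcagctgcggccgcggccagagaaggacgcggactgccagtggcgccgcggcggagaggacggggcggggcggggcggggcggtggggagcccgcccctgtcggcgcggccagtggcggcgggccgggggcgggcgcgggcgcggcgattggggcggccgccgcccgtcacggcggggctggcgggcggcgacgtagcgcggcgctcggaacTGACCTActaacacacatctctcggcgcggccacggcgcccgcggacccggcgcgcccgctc
Arntl: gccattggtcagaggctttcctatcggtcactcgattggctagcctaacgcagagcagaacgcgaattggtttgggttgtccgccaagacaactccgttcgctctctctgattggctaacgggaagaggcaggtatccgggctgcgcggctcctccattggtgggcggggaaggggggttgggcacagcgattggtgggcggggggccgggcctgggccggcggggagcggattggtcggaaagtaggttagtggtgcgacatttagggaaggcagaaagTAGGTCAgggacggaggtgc
Tef: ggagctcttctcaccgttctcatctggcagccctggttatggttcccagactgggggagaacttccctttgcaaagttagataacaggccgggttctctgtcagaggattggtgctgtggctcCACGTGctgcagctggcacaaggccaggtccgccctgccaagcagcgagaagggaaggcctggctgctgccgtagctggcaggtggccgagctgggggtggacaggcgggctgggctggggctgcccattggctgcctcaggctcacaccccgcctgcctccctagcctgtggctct
Slc41a3: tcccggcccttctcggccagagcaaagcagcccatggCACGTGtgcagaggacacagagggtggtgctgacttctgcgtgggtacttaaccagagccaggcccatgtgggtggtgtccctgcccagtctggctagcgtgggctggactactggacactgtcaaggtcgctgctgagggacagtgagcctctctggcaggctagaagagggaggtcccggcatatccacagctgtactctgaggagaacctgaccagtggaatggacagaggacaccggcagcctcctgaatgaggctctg

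Of 83 called genes with a name, 67 matched a RefSeq promoter and gave 86 promoters. On either strand CACGTG occurred in 4 of 62 promoters of genes higher at ZT18 (6.45%), 4.17% of promoters of genes lower at ZT18, 9.99% of the promoters of all tested genes and 7.15% of all promoters in the table. The 4 promoters belong to Lig1, Rev1 and Tef, with Tef counted through separate annotated starts, at -127 and -138. The shares for TAGGTCA were 1.61%, 4.17%, 1.87% and 2.61%. The D-box forms TTATGTAA and TTACGTAA occurred in 0 of the 86. A match is a description of these letters in this window, not a bound site, and the shares in called genes rest on few promoters.

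Outside the clock, the widest rise was in Angptl7, at 9.21, 8.86, 8.86 and 8.30 at ZT18 and 6.13, 6.37, 6.65 and 5.84 at ZT6. A wide gap separated the lowest ZT18 array from the highest ZT6 array, and the difference was 2.56 ± 0.29 (limma adjusted p = 2e-08). Gsta3, an alpha class glutathione S-transferase, measured 9.90, 10.18, 10.23 and 9.81 at ZT18 and 8.37, 8.16, 8.25 and 8.40 at ZT6, a difference of 1.74 ± 0.16 (limma adjusted p = 4.07e-11). Its arrays agreed closely within each time. Gstt1, of the theta class, was 8.12, 8.01, 7.93 and 8.01 at ZT18 and 7.00, 7.23, 7.34 and 6.90 at ZT6, a difference of 0.90 ± 0.17 (limma adjusted p = 0.00151). Together with Nampt these were the 3 genes called among 43 of antioxidant, glutathione and NAD metabolism (6.98%, list median 0.05), all 3 higher at ZT18.

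Il33, an alarmin of the interleukin-1 family stored in nuclei, was 7.62, 7.23, 7.36 and 6.76 at ZT18 and 6.06, 6.34, 5.78 and 5.86 at ZT6. It was the single gene called among 26 of inflammation and acute phase (3.85%; list median -0.13), and its difference was 1.23 ± 0.22 (limma adjusted p = 0.000842). Lyve1, the hyaluronan receptor of lymphatic endothelium and of resident macrophages, was 8.82, 8.48, 8.80 and 8.30 at ZT18 and 7.31, 7.78, 7.73 and 7.75 at ZT6. The groups did not overlap, but the limma adjusted p of 0.00649 became 0.0656 without replicate 1, the lowest array. Timp3, an inhibitor of matrix metalloproteinases, was 11.80, 11.53, 11.54 and 11.55 at ZT18 and 10.50, 11.02, 10.93 and 10.84 at ZT6, a difference of 0.78 ± 0.14 (limma adjusted p = 0.000632), and a second probe gave 0.56 and did not pass. In whole hearts fewer cells of a type and less RNA per cell cannot be told apart.

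Ier3, an immediate early gene of stress responses, was 11.06, 10.85, 11.08 and 10.61 at ZT18 and 9.71, 10.17, 10.37 and 10.22 at ZT6, a difference of 0.78 ± 0.15 (limma adjusted p = 0.00183). It was the single call among 17 immediate early genes (5.88%), and Jun and Junb differed by -0.45 and -0.56 without passing. Slc6a9, the glycine transporter GlyT1, was detected on 4 of 4 arrays at ZT18 and 2 of 4 at ZT6 and was higher at ZT18 (limma adjusted p = 0.00449, or 0.0527 without ZT6 replicate 152). Pom121, a nuclear pore membrane protein, was 2.05-fold higher with an adjusted p of 0.0038, or 0.0829 without replicate 1, which at 5.20 was the lowest array. Gm4956 was detected on 4 of 4 arrays at ZT18 and 1 of 4 at ZT6 and was higher at ZT18 (limma adjusted p = 0.00183). The measured ZT6 means of Slc6a9 and Gm4956, 5.37 and 5.20, are close to background, so no fold is given for them. Podn, the small leucine-rich proteoglycan podocan, was detected on 4 of 4 arrays at ZT18 and 0 of 4 at ZT6, which makes it at least 1.76-fold higher at ZT18 (limma adjusted p = 0.0284, or 0.124 without replicate 1). Such a bound sets the ZT18 mean against the lowest signal of a detected probe on each ZT6 array or the probe's own value, whichever was higher.

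The adult beta globin gene Hbb-bt was 9.72, 11.19, 9.41 and 10.44 at ZT18 and 7.52, 8.68, 8.09 and 8.74 at ZT6. Its arrays spread widely within each time, and the difference was 1.93 ± 0.51 (limma adjusted p = 0.0417, or 0.186 without replicate 1). Hbb-bt is nearly identical to other beta globin genes, so its probe may read them too. Of the 4 tested genes on the red blood cell list, which does not hold Hbb-bt, 0 passed, also at an unadjusted p under 0.05; Hba-a1, Hbb-b2 and Slc4a1 differed by -0.17, -0.31 and 0.64, and the summed log2 signal of the 4 spanned 14.35 to 15.31 at ZT18 and 14.62 to 15.13 at ZT6. Lig1, the replicative DNA ligase, was detected on 4 of 4 arrays at ZT18 and 1 of 4 at ZT6 and was higher at ZT18 (limma adjusted p = 0.0266, or 0.0851 without replicate 1), but a second Lig1 probe gave -0.04.

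Among the falls, Slc41a3, a member of a magnesium transporter family, measured 8.77, 8.00, 8.30 and 8.15 at ZT18 and 9.84, 9.80, 9.35 and 9.40 at ZT6. No ZT18 array reached the lowest ZT6 array, and the difference was -1.29 ± 0.17 (limma adjusted p = 9.18e-07). The other Slc41a3 probes both gave -1.27, and 1 of them did not pass (limma adjusted p = 0.114). Spon2, a secreted matrix protein of the spondin family, was 7.84, 7.71, 8.29 and 8.03 at ZT18 and 9.79, 9.03, 9.25 and 8.94 at ZT6, a difference of -1.28 ± 0.28 (limma adjusted p = 0.00712). Replicate 1 was the highest, and without it the difference was -1.11 with an adjusted p of 0.077. Zc3h6, a CCCH zinc finger gene, was 2.10-fold lower at ZT18 (limma adjusted p = 0.0284, or 0.139 without replicate 1).

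Col4a1 and Col4a2, chains of type IV collagen, the main network of basement membranes, were both lower at ZT18. Col4a1 measured 10.96, 11.19, 11.17 and 10.88 at ZT18 and 11.82, 11.89, 12.13 and 12.12 at ZT6, a difference of -0.94 ± 0.14 (limma adjusted p = 1.14e-05). Col4a2 measured 10.25, 10.13, 10.06 and 10.84 at ZT18 and 11.07, 11.12, 11.31 and 11.24 at ZT6, a difference of -0.87 ± 0.17 (limma adjusted p = 0.00287). ZT18 replicate 143 was much closer to ZT6 for Col4a2 than its group was. With median scaling the differences were -0.76 and -0.70 and neither passed (limma adjusted p = 0.0547 and 0.0507), and on the 8 arrays alone Col4a2 did not pass (0.115). These genes are known to be transcribed divergently from a shared promoter. Of 47 extracellular matrix genes 4 were lower and 1, Timp3, was higher (10.6% called, list median -0.02). The others, chosen for naming after their values were seen, were Col15a1, a basement membrane collagen, at -0.63 ± 0.16 and Loxl1, which cross-links elastin, at -0.55 ± 0.13. Col15a1 was called in 2 of the 8 fits that left out 1 array and Loxl1 in 5, with limma adjusted p-values of up to 0.138 (without ZT6 replicate 151) and 0.1 (without ZT18 replicate 143). Their results under median scaling are not given here. Without replicate 1 this list also held 5 calls. The fibroblast markers, 13 measured, had 0 calls (3 at an unadjusted p under 0.05) and a median of -0.01, with Col1a1 at -0.58 and Col3a1 at -0.55, and their summed log2 signal was 13.78 to 14.07 at ZT18 and 13.78 to 14.27 at ZT6, where replicate 1 was the highest; their part in the collagen result was not tested.

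Kdelr3 encodes a receptor that returns resident proteins to the endoplasmic reticulum. It measured 6.54, 6.92, 6.62 and 6.65 at ZT18 and 7.71, 7.30, 7.44 and 7.61 at ZT6, a difference of -0.83 ± 0.14 (limma adjusted p = 0.000148). Creld2, an endoplasmic reticulum protein induced by misfolding stress, was 6.80, 7.28, 7.03 and 6.79 at ZT18 and 8.10, 7.95, 7.61 and 7.32 at ZT6, a difference of -0.77 ± 0.18 (limma adjusted p = 0.0199, or 0.129 without replicate 1), and a second probe gave -0.46 and did not pass. On the list of chaperones of the endoplasmic reticulum and the unfolded protein response, 1 of 21 was higher (Herpud1) and 1 lower (Creld2), 9.52%. The list median was -0.18, with 16 of 21 members below 0, and Calr, the chaperone calreticulin, differed by -0.58 ± 0.17 without passing (limma adjusted p = 0.0748). Heat shock and cytosolic chaperones had 0 calls among 42 and 7 at an unadjusted p under 0.05, against 0.952% and 11.3% of all genes. The median was 0.02.

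Tnfaip2, a gene induced by tumour necrosis factor, was 7.84, 8.06, 8.16 and 8.21 at ZT18 and 8.91, 8.89, 9.03 and 8.87 at ZT6, a difference of -0.86 ± 0.17 (limma adjusted p = 0.00188). Its ZT6 arrays lay close to each other, and 2 other probes gave -0.69 and -0.67. The probe at -0.67 did not pass (limma adjusted p = 0.114). Efhd1, a mitochondrial calcium-binding protein, was lower at ZT18 (limma adjusted p = 0.0077, or 0.0906 without ZT18 replicate 60). Fscn1, the actin-bundling protein fascin, was 1.79-fold lower and Casp4, an inflammatory caspase, was lower. Each had a limma adjusted p of 0.0657 without replicate 1, from 0.0038 and 0.0229. Casp4 was detected on 1 of 4 arrays at ZT18, and its other probes gave 0.08 and -0.36. The measured ZT18 means of Efhd1 and Casp4, 5.50 and 5.44, are close to background, so no fold is given for them. Cep41, a centrosomal protein, was detected on 0 of 4 arrays at ZT18 and 4 of 4 at ZT6 and was at least 1.27-fold lower (limma adjusted p = 0.00712, or 0.0588 without ZT18 replicate 143).

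Lipid storage held 2 calls among 35 genes of triglyceride storage and lipid synthesis (5.71%; list median 0.02). Dgat2, which catalyses the last step of triglyceride synthesis, was 12.39, 12.82, 12.44 and 12.61 at ZT18 and 11.81, 11.72, 11.65 and 11.71 at ZT6. The difference was 0.84 ± 0.17 (limma adjusted p = 0.00406), with a narrow ZT6 group. Plin4, a coat protein of lipid droplets, was 11.97, 12.04, 12.04 and 11.72 at ZT18 and 11.24, 11.49, 11.38 and 11.40 at ZT6, a difference of 0.56 ± 0.11 (limma adjusted p = 0.0038). Mid1ip1, a regulator of fatty acid synthesis, differed by 0.75 ± 0.22 with groups that did not overlap but did not pass (limma adjusted p = 0.0831). Fatty acid uptake and oxidation had 0 calls among 34 genes and 2 at an unadjusted p under 0.05, against 0.952% and 11.3% of all genes. The median was 0.06. Ucp3, a mitochondrial carrier that rises with fatty acid use, differed by -1.30 ± 0.37 (limma adjusted p = 0.0703), and by -0.85 without replicate 1. A second Ucp3 probe gave -0.65 and did not pass (limma adjusted p = 0.28).

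The glucose and glycogen lists held no calls, where 0.952% of all genes were called and 11.3% had an unadjusted p under 0.05. Glycolysis and glucose uptake had 0 of 27 (5 at an unadjusted p under 0.05) and a median of 0.05, and Pdk4, the kinase that holds back glucose oxidation, differed by -1.06 ± 0.31 with groups that did not overlap (limma adjusted p = 0.0942). Glycogen metabolism had 0 of 19 (also 5 unadjusted), although 16 of 19 members lay above 0 with a median of 0.18. Ppp1r3b and Ppp1r3c, which target protein phosphatase 1 to glycogen, differed by 0.96 ± 0.28 and 0.42 ± 0.15 with limma adjusted p-values of 0.0909 and 0.213. Pik3r1, the regulatory subunit of phosphoinositide 3-kinase, was the single call among 33 insulin, PI3K, Akt and mTOR genes (3.03%). It was 1.53-fold higher, and its 2 other probes were also called, at 0.60 and 0.85, but the limma adjusted p of 0.0294 became 0.131 without replicate 1. Gpt, the alanine aminotransferase, was the single call among 32 amino acid, polyamine and one-carbon genes (3.12%), at 0.52 ± 0.14 (limma adjusted p = 0.0462, or 0.293 without replicate 1).

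Tsc22d3 was also the single call among 21 glucocorticoid-responsive genes (4.76%). This list had the highest median of the 37 lists that are not cell type markers, 0.37, or 0.27 without replicate 1, and the median was -0.07 in knockout hearts. Its members went both ways, 13 above and 8 below 0, from -1.06 to 0.80, and 12 had an unadjusted p under 0.05. The lowest median was that of interferon response and antigen presentation, at -0.23 against 0.01 over all genes, with 28 of 34 members below 0. It held 0 calls, or 7 at an unadjusted p under 0.05. In other arrays the median of this list was near 0: -0.02 in knockout hearts, -0.01 in ZT15 minus ZT3 and -0.02 in ZT21 minus ZT9. Irf9, a transcription factor of interferon signalling, and Tapbp, which loads peptides on class I molecules, differed by -0.58 and -0.61 with groups that did not overlap, and neither passed (limma adjusted p = 0.0704 and 0.263). A second probe gave -0.39 for Irf9 and -0.07 for Tapbp, and neither passed.

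The lists of contractile and energy machinery held no calls. There were 0 among 34 sarcomere and costamere genes (median -0.01), 0 among 70 respiratory chain and ATP synthase genes (-0.02), 0 among 20 of the citric acid cycle (0.04), 0 among 29 of calcium handling (0.10) and 0 among 25 ion channels (0.08). Kcnj12, an inward rectifier potassium channel, had groups that did not overlap and a difference of 0.54 ± 0.17 (limma adjusted p = 0.129). Cytosolic and mitochondrial ribosomal proteins had 0 calls among 57 and 71, with medians of 0.01 and 0.00, and 41 proteasome subunits and 35 histone genes also had 0. At an unadjusted p under 0.05 these 9 lists held 2 sarcomere, 4 respiratory, 0 citric acid cycle, 1 calcium, 6 ion channel, 2 and 2 ribosomal, 3 proteasome and 4 histone genes. Over all genes 11.3% were under that value and 0.952% were called. With so few calls, 0 in a list of this size, here or above, cannot set the list apart from all genes. Brain natriuretic peptide, Nppb, of the growth and fetal program, differed by -0.65 ± 0.27 and did not pass (limma adjusted p = 0.331).

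**Figure D3:**
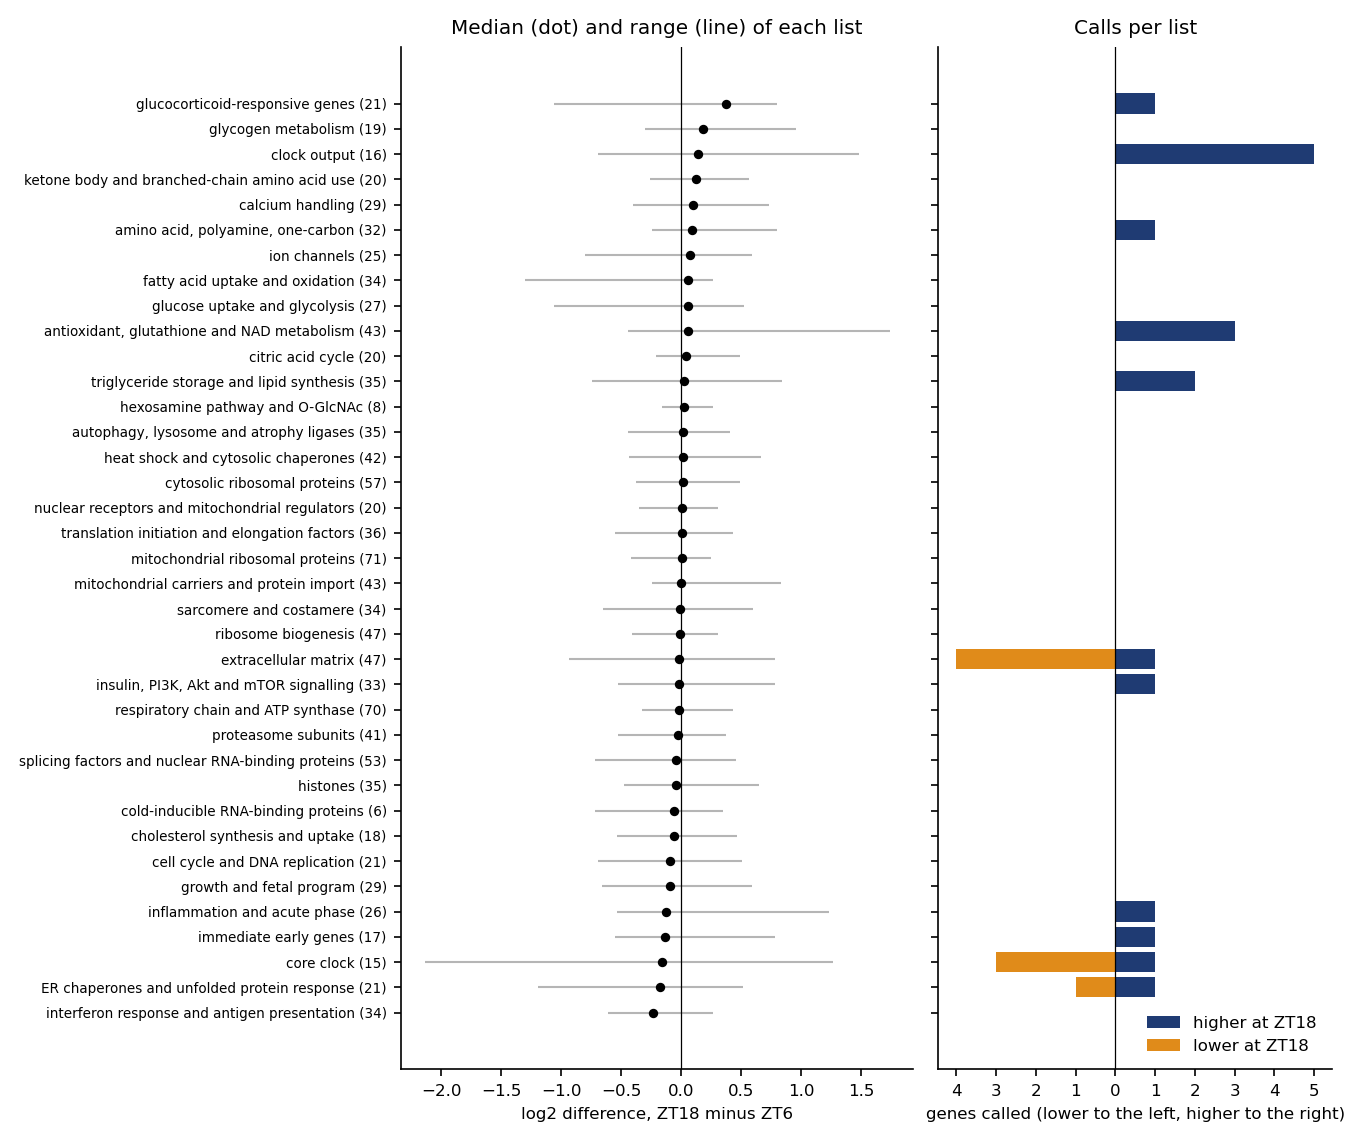
Left, the median (dot) and range (line) of the log2 difference, ZT18 minus ZT6, of the members of 37 gene lists, with the number tested in brackets; right, the number of members called higher (blue) or lower (orange) at ZT18. Clock output and the core clock hold 5 and 4 calls, the extracellular matrix 5, and most lists of metabolism and contraction hold none with medians near 0. Of all genes 0.952% were called.

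The markers that define heart muscle were present. All 12 measured ventricular cardiomyocyte markers were detected on all 8 arrays, and their summed log2 signal was 17.85 to 17.90 at ZT18 and 17.81 to 17.89 at ZT6. The one gene called on the marker lists was Aqp1, the endothelial water channel, at 12.91, 12.90, 13.30 and 13.05 at ZT18 and 12.47, 12.67, 12.39 and 12.51 at ZT6, a difference of 0.53 ± 0.11 (limma adjusted p = 0.00494, or 0.0586 without ZT18 replicate 85). Its other probes gave 0.39 and 0.48 and did not pass. The other 16 of 17 endothelial markers did not pass, with the list median at -0.02. The summed endothelial signal was 14.54 to 14.71 at ZT18 and 14.42 to 14.51 at ZT6. Each summed signal given here adds unlogged signal and then takes log2, so strong members weigh most. The endothelial sum therefore includes the Aqp1 rise, and a sum without Aqp1 was not tested. Myeloid markers (0 of 21 called) summed to 13.28 to 13.83 at ZT18 and 13.57 to 14.00 at ZT6, and atrial markers (0 of 10) spread from 12.82 to 14.98 and from 12.74 to 14.63. Skeletal muscle markers (0 of 8) had a median of -0.34, which was -0.05 without replicate 1, an array in which the fast-muscle calcium pump gene Atp2a1 stood at 8.79 against at most 5.48 on the other ZT6 arrays. Of 15 lymphocyte and 10 adipocyte markers listed, 2 and 4 were detected often enough to be tested.

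ZT6 and ZT18 are opposite in the day but need not be the peak or trough of a gene. Across the 8 wild type times, 40 of the 59 genes higher at ZT18 had their highest mean at ZT18, 10 at ZT15, 5 at ZT12, 3 at ZT0 and 1 at ZT3. Of all genes, 14.1% had their highest mean at ZT18 and 11.3% at ZT6. Of the 28 lower genes, 17 were highest at ZT6, 5 at ZT3, 4 at ZT9 and 1 each at ZT0 and ZT12. The arrays that set these times also chose the genes, so the counts are a description only. The times also alternate between separate runs of sample numbers: ZT0, ZT6, ZT12 and ZT18 belong to the lower run, the others to the higher. A difference between the runs cannot be told apart from time of day when all 8 are ranked. Some genes were between their extremes at both times. Arntl ranged from 5.18 ± 0.23 (SD, n = 4) at ZT15 to 8.11 ± 0.20 at ZT3, so both 6.25 at ZT18 and 7.15 at ZT6 lay on its slopes. Ciart rose to 8.59 ± 0.34 at ZT9 but stood at 5.99 and 5.44 at ZT6 and ZT18. In contrast Gsta3 and Angptl7 had their lowest mean at ZT6 and their highest at ZT18, and Col4a1 its highest at ZT6 and lowest at ZT18.

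**Figure D4:**
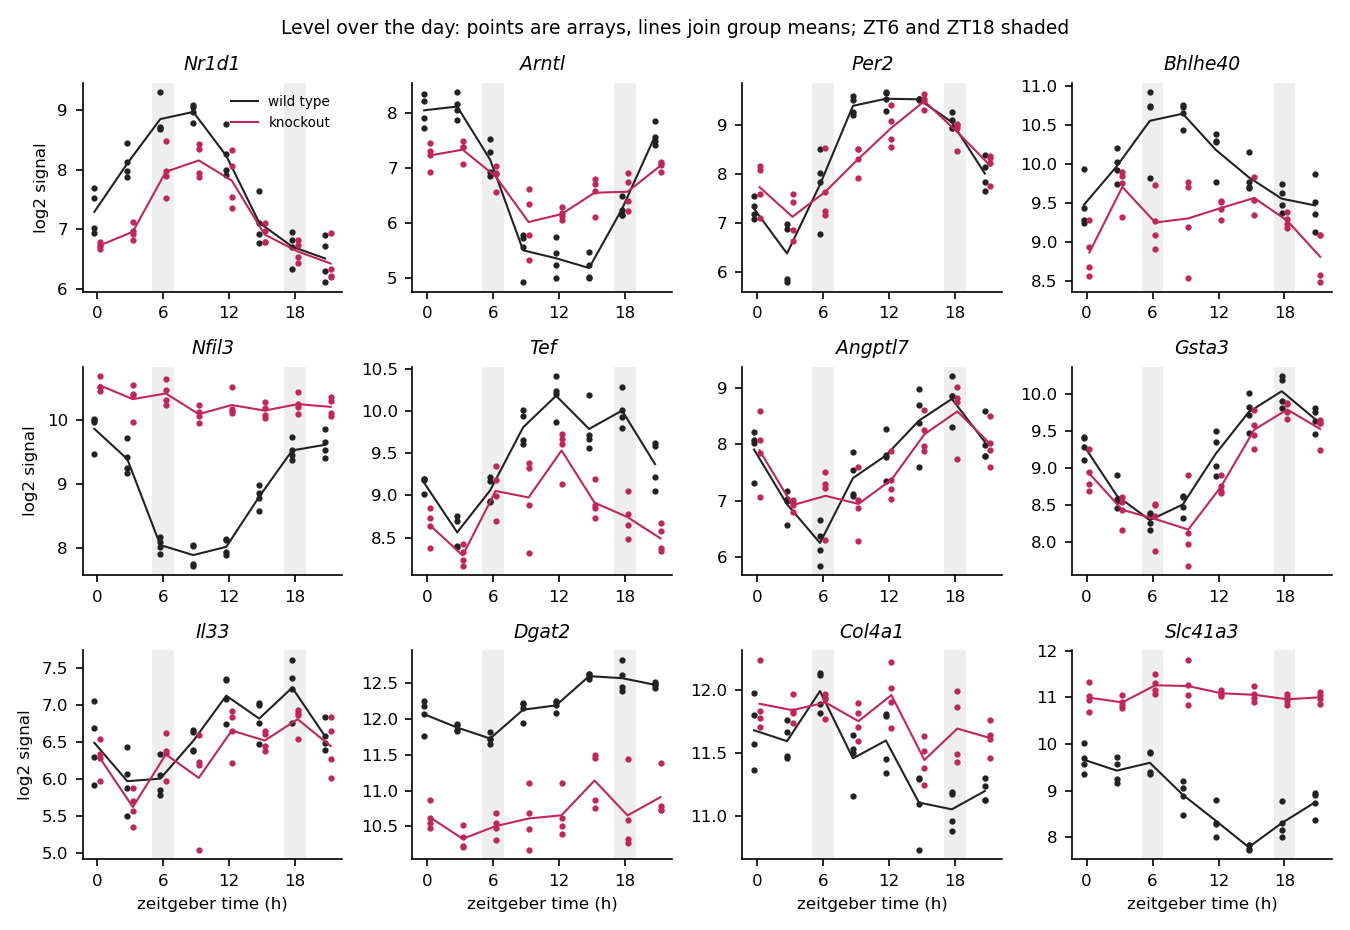
The log2 signal of 12 genes against zeitgeber time in hours; points are arrays, lines join the means of 4 arrays, black is wild type and red the knockout, and ZT6 and ZT18 are shaded. In wild type Gsta3 and Angptl7 are lowest at ZT6 and highest at ZT18, whereas Arntl and Per2 cross ZT6 and ZT18 on a slope.

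The hearts of ZT3, ZT9, ZT15 and ZT21 carry a separate run of sample numbers and share no array with the ZT18 to ZT6 comparison. In them 73 genes were called between ZT15 and ZT3 (0.799%) and 94 between ZT21 and ZT9 (1.03%). Of the 87 genes, 71 (81.6%) had the same sign in ZT15 minus ZT3 and 70 (80.5%) in ZT21 minus ZT9, against 53.9% and 55.2% of all genes. The sign was the same in both for 55 (63.2%), against 28.3% of all genes, and for 20 of the 25 genes called whichever array was left out. Of the 87, 32 were also called with the same sign in at least 1 of these contrasts, against 126 of all 9137 genes. In at least 1 contrast 4 of the 87 were called with the opposite sign, against 39 of all 9137. A gene can be in both counts. Gsta3 was higher at the later time in both, by 1.13 and 1.16, and Nr1d1 was lower in both, by -0.99 and -2.46. The 4 genes with opposite calls were 3 clock genes and Ier3: Arntl differed by -2.94 and 2.08, Per2 by 3.13 and -1.37, Nfil3 by -0.59 and 1.73 and Ier3 by 1.07 and -0.61. The median difference of the 87, signed as in ZT18 minus ZT6, was 0.37 and 0.18 in the 2 contrasts, against a size of 0.77 in the comparison that chose them.

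**Figure D5:**
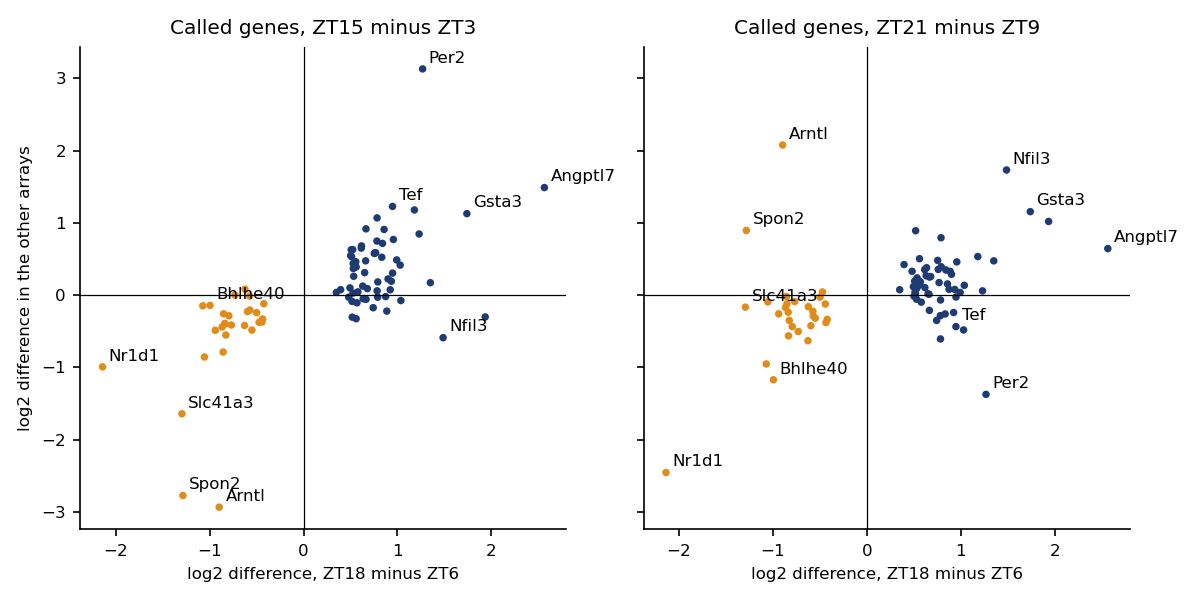
The 87 called genes: the horizontal axis is the log2 difference ZT18 minus ZT6, the vertical axis the log2 difference ZT15 minus ZT3 (left) or ZT21 minus ZT9 (right) in separate wild type arrays; blue genes were higher at ZT18 and orange lower. In the left and right panel 71 and 70 of the 87 genes keep their sign, and Arntl, Per2 and Nfil3 are among those that change it in one panel.

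In knockout hearts the same 2 times gave 7 calls (0.0766%). Arntl in the knockout measured 6.39, 6.22, 6.74 and 6.90 at ZT18 and 6.55, 7.03, 6.90 and 6.88 at ZT6, a difference of -0.28 that did not pass. The position of the Arntl probe relative to the deleted part is not known here, and cells other than cardiomyocytes keep the gene, so these levels do not check the deletion. Of the 87 genes 70 (80.5%) had the same sign in the knockout, against 58.9% of all genes, and 6 were also called there. They were Angptl7 at 1.50, Gsta3 at 1.48, Gm4956 at 1.23, Per2 at 1.21, Nr1d1 at -1.34 and a probe without a gene name at -0.81.

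The difference between the genotypes in the ZT18 minus ZT6 change was itself tested in the same fit, and 2 genes passed (0.0219%), both clock outputs; at an unadjusted p under 0.05 there were 427. Nfil3 in the knockout measured 10.21, 10.45, 10.11 and 10.26 at ZT18 and 10.47, 10.65, 10.32 and 10.25 at ZT6, each above every wild type array of either time. Its change there was -0.17 against 1.49 in wild type, a difference of 1.65 ± 0.18 (limma adjusted p = 1.19e-08). Tef in the knockout measured 9.06, 8.65, 8.78 and 8.48 at ZT18 and 8.99, 9.35, 9.18 and 8.70 at ZT6. Its change was -0.31 against 0.95 in wild type, a difference of 1.26 ± 0.24 (limma adjusted p = 0.0123). Without wild type ZT18 replicate 60 or ZT6 replicate 95 the Tef difference, then 1.17 or 1.21, no longer passed and 1 gene was left. For Gsta3, 1.74 in wild type and 1.48 in the knockout, the difference was 0.26 ± 0.23 and did not pass, which does not show that the changes are equal. Slc41a3, at -1.29 and -0.30, and Col4a1, at -0.94 and -0.21, likewise did not pass (limma adjusted p = 0.151 and 0.302 for the difference).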

How the data were processed

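Whole-heart RNA of 64 samples was primed with oligo(dT), amplified as biotin-labelled cRNA and stained with streptavidin-Cy3, per the labels. Per the file headers, the authors' scanner table holds the mean bead intensity of each probe on each array next to its detection p-value, and shows no sign of normalization. The scanner software was not given in the sources used here. A second table deposited by the authors holds processed intensity values, which kept the order of the scanner values (Spearman correlation 1) and had 26.2% of its values below 0. It was used as an alternative.

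Background was removed with limma 3.58.1 (R 4.3.3; normexp from the detection p-values, offset 16), followed by quantile normalization and log2. A probe was kept if its detection p was under 0.01 on 4 or more arrays, which left 12101 of 25697. Probes were named from the platform annotation, which gave 23978 of them 1 symbol. The probe with the highest mean represented each gene. limma was fitted with a mean for each of 16 groups over all 64 arrays (48 residual degrees of freedom), with Benjamini-Hochberg adjustment across 9137 features and a threshold of 0.05. The procedure was tested on simulated data. The number of arrays limits the precision. Promoters came from RefSeq; the D-box, E-box and ROR core were searched on both strands.

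Genes were named by a rule: the core clock, the 15 largest rises and 15 largest falls with separate groups, the 3 smallest adjusted p-values of each list, and the genotype differences. The members and the 48 lists, 37 of them not cell type markers, were chosen with earlier results of these data known. Alternatives varied the background correction, normalization, deposited values, filter, arrays in the fit, array weights, probes per gene and single arrays. Figures were drawn with matplotlib 3.10.9.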

Additional observations from a re-analysis of the deposited data

Results flagged for a closer look

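In the groups of 4 arrays, 334 groups of named genes were examined for 1 array whose gap to the next exceeded Dixon's critical share of the range, and 24 did so. Chance gives about 1 in 20. Of the 24, 14 were ZT6 replicate 1. It was high in Nr1d1 (9.29, next 8.72), Csnk1d (8.05, next 7.53), Mustn1 (7.56, next 6.94), Atp2a1 (8.79, next 5.48) and H3c13 (9.69, next 9.15). It was low in Lyve1 (7.31, next 7.73), Rbm5 (9.71, next 10.32), Pfkl (10.51, next 10.76), Ppp1r3c (11.97, next 12.58), Acadsb (9.76, next 10.47), Luc7l3 (9.64, next 10.04), Eng (8.83, next 9.19), Col3a1 (7.45, next 8.47) and Cd163 (6.95, next 7.99).

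ZT18 replicate 143 was far from its group 5 times: low in Rora at 7.55, Slc6a9 at 6.02 and Psmd2 at 5.68, and high in Lgals3bp at 8.88 and Mrpl30 at 11.82. ZT18 replicate 85 was high in Rorb at 5.14 and in Ppp1r3c at 13.03, and ZT18 replicate 60 was high in Timp3 at 11.80. ZT6 replicate 152 was low in Vtn at 8.71, and ZT6 replicate 151 was high in Ccl5 at 6.56 against 5.16 for the next array.

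The ZT18 minus ZT6 change differed between wild type and knockout in Nfil3, by 1.65, and in Tef, by 1.26, by the limma test of that difference.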

How the results depend on the processing

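No paired analysis was possible because the sample numbers are not shared between groups, and a chip or scan block was not run because the file headers name neither. Against 87 calls (59 higher, 28 lower), no background correction gave 111, median scaling 66 with 10 lower, the authors' processed values 83, no filter 62, and the 32 arrays of the same times 75. A fit on the 8 arrays alone gave 18 (11 and 7), with calls among 16 named genes and in 7 lists against 39 and 12; it has 6 residual degrees of freedom. Array weights gave 267 (154 and 113), with 64 named genes and 28 genotype differences against 2, and ZT6 replicate 1 received a weight of 0.31. The 16 arrays alone gave 1 genotype difference, Nfil3, with Tef at 1.26. Leaving out 1 array gave 43 to 77 calls (27 to 50 higher, 16 to 29 lower), 26 to 41 named genes, 9 to 15 lists and 1 to 3 genotype differences. Lower counts of higher genes came without ZT18 replicate 60 (35), 84 (34) or 85 (37) and ZT6 replicate 152 (36), and of lower genes without ZT6 replicate 151 (18). Beyond the fewer arrays in a fit, the cause was not tested. Signs turned in uncalled genes. Per1 was -0.047 without background correction, -0.47 with weights, and -0.58 (without ZT6 replicate 1) to 0.32 when single arrays were left out, below 0 also without ZT18 replicates 84 (-0.15) and 143 (-0.21). Cidea was 0.002 with median scaling. With weights Rora, Csnk1d and Timeless were 0.078, 0.062 and -0.011. With single arrays left out, Rora spanned -0.29 to 0.088, Csnk1d -0.17 to 0.021, Timeless -0.089 to 0.20 and Atp2a1 -1.25 to 0.035, each turned without ZT6 replicate 1. Lipe spanned -0.26 to 0.067 (0.02 without ZT6 replicate 1), Hbb-b2 -0.70 to 0.0058, Myl4 -0.035 to 1.12 and Ccl5 -0.52 to 0.0053. Of the 9137 features, 322 were detected on none of the 8 arrays.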

Other observations

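The naming rule left 48 called genes undescribed; those below were chosen after their values were seen. Among genes called whichever of the 8 arrays was left out, Rarb, a retinoic acid receptor, was 8.47, 8.36, 8.56 and 8.24 at ZT18 and 7.76, 7.67, 7.47 and 7.56 at ZT6, a difference of 0.79 ± 0.15 (limma adjusted p = 0.00144), and a second probe gave 0.55 and did not pass. P2ry1, a receptor for ADP, was 9.33, 9.58, 9.93 and 9.74 at ZT18 and 8.97, 8.70, 9.09 and 8.78 at ZT6, a difference of 0.76 ± 0.14 (limma adjusted p = 0.000842). Adamtsl4, a matrix protein that binds fibrillin, differed by 0.66 ± 0.12 (limma adjusted p = 0.000842), and Tmem204, an endothelial membrane protein, by -0.50 ± 0.10 (limma adjusted p = 0.00482). Each of these 4 had groups that did not overlap. Their results under median scaling are not given here.

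Genes for secreted factors and their receptors were among the others. Fgf7, a fibroblast growth factor, was detected on 2 of 4 arrays at ZT18 and 0 of 4 at ZT6 and was at least 1.08-fold higher (limma adjusted p = 0.0346, or up to 0.207, without ZT18 replicate 60; called in 3 of the 8 fits that left out 1 array). Its groups overlapped. Gdf10, of the transforming growth factor beta family, differed by 0.83 ± 0.19 (limma adjusted p = 0.00896, or up to 0.0749, without ZT18 replicate 85; 5 of 8 fits). Lifr, the leukaemia inhibitory factor receptor, differed by 0.65 ± 0.17 (limma adjusted p = 0.0396, or 0.217 without ZT6 replicate 1; 3 of 8 fits), its groups overlapped, and a second probe gave 0.17 and did not pass. Noct, a rhythmic gene first described as a deadenylase, differed by 0.66 ± 0.16 (limma adjusted p = 0.0284, or 0.177 without that array; 3 of 8 fits), with groups that overlapped and a second probe at 0.92 that did not pass. Xdh, xanthine dehydrogenase of purine breakdown, differed by 0.77 ± 0.19 (limma adjusted p = 0.0228, or 0.135 without it; 5 of 8 fits). Nup62, a second nuclear pore gene beside Pom121, differed by 0.56 ± 0.15 (limma adjusted p = 0.0393, or 0.23 without it; 1 of 8 fits).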
